A study of Saccharomyces cerevisiae with 12 samples.

Results

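The cytoplasmic small (40S) ribosomal subunit of budding yeast is built from 1 ribosomal RNA and the proteins of the RPS genes, together with Asc1. The table of the series lists 6825 features, and all 57 genes from RPS0A to RPS31 and ASC1 were found in it. They were chosen by their systematic names and not by their values, though with earlier results of these data known. They encode 33 proteins, 24 of them from a pair of paralogs (A and B copies) and 9 from a single gene, and their mRNA levels are described here over 4 groups of 3 samples. WT cells (DF5a background) and euc1∆ cells, which lack EUC1 (ymr111c::natNT2), were grown in YP with glucose to mid-log phase, and both carried YIplac211-MED11::URA3, an integrated plasmid with an added copy of MED11. The control and pGAL-EUC1 cells (W303a RAD5 background) both lacked the chromosomal EUC1 (ymr111c::natNT2) and carried it on an integrated YIplac211 plasmid marked with URA3, under its own promoter (pEUC1-EUC1) in the control and under the galactose-inducible GAL promoter in pGAL-EUC1. Both were grown in YP with raffinose to an OD of 0.5 and then given 2% galactose for 3 h. Each group is a single strain, and the labels call the samples biological triplicates without saying what a replicate number shares.

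The small subunit binds the mRNA, holds the decoding site and scans for the start codon, and the large subunit joins it there. Most ribosomal protein genes of yeast were kept as paralog pairs after the duplication of the whole genome, and many carry an intron, which is rare among other yeast genes. Their transcription follows growth: Rap1 binds their promoters and recruits Fhl1 with its coactivator Ifh1, and Hmo1 binds many of them. Crf1 can take the place of Ifh1 in repression, though whether it does so in these strains was not tested. Sfp1 and the TOR and Sch9 kinases pass on the nutrient signal. Poor carbon sources and stress are known to lower these mRNAs together. EUC1 encodes a DNA-binding protein resembling a transcription factor, and the study compared its deletion with WT and its overexpression with the control.

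Levels are given in TPM (a share of transcripts corrected for gene length and scaled to a common total), which can be compared between genes but keep no record of read numbers, so that the depth behind each value is unknown. EUC1 itself was listed at 9.56 to 15.96 TPM in WT and at 0 to 0.09 in euc1∆. It was listed at 30.75 to 50.62 TPM in the control and at 1942 to 2035 in pGAL-EUC1. The deletion was thus lowest and the overexpression highest, as labelled. Every control sample also lay above every WT sample, an order that the labels do not give. Genes of mating type a summed to 972.5 to 1633 TPM and those of mating type α to 21.1 to 48.9 TPM, as the strain names give it. Across all features, Pearson correlations of log2(TPM + 1) between samples of a group were 0.985 to 0.993.

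Small subunit mRNAs were among the most abundant of the cell in every sample. In glucose, 35 to 38 of the 57 genes were among the 100 highest features of a sample. In galactose, 30 to 32 were. The mean of a gene in WT ran from 446.3 TPM for RPS9A to 11048 TPM for RPS31, with a median of 3138 TPM. In the control the range was 302.3 TPM (RPS14B) to 5444 TPM (RPS31), with a median of 1901 TPM. The median was 3052 TPM in euc1∆ and 1792 TPM in pGAL-EUC1. The 3 samples of a group were close, with a median coefficient of variation of 6.80% in WT, 4.74% in euc1∆, 2.64% in the control and 2.66% in pGAL-EUC1. The widest spread, 23.9%, was that of RPS29A in pGAL-EUC1.

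RPS31, whose product is a ribosomal protein fused to ubiquitin, was listed at 12513, 10348 and 10282 TPM in WT, at 9826, 10255 and 9929 in euc1∆, at 5253, 5514 and 5564 in the control and at 5016, 5396 and 5112 in pGAL-EUC1. It had the highest mean of the 57 genes in all 4 groups. RPS12 was next, at 7160 to 9206 TPM over the 6 glucose samples and 3638 to 3888 TPM over the 6 galactose samples. RPS28A and RPS20 were also among the 5 highest, with means over the 12 samples of 4008 and 3834 TPM. At the other end stood 5 genes that are all minor copies of a pair. RPS27A and RPS7B had means of 1098 and 846.5 TPM over the 12 samples, RPS22B 656.2 TPM, RPS9A 517.6 TPM and RPS14B 383.7 TPM. When the copies of a pair were added, the 33 proteins lay closer together than the single genes. In WT the sums ran from 3157 TPM (ASC1, the yeast homologue of RACK1) to 11048 TPM (RPS31), a ratio of 3.50, against a ratio of 24.8 between single genes. In the control the ratios were 2.73 for proteins and 18.0 for genes.

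As a whole, small subunit mRNAs took 17.6 to 19.1% of the listed TPM in WT, 17.5 to 18.0% in euc1∆, at most 11.3% in the control and 10.4 to 10.9% in pGAL-EUC1. The glucose and galactose samples did not overlap. The sum of the 57 genes was 180175 ± 7750 TPM in WT and 176140 ± 2530 in euc1∆ (SD, n = 3). These overlapped, at a log2 ratio of -0.03 (two-sided exact permutation test, p = 0.6). It was 110385 ± 1260 TPM in the control and 104422 ± 3000 TPM in pGAL-EUC1. All 3 pGAL-EUC1 samples lay below all 3 control samples, at a log2 ratio of -0.08 and p = 0.1 in the exact test, the smallest p that 3 samples against 3 allow. After rescaling by the median of ratios it was -0.155. The sum in the control lay below that of WT by a log2 ratio of -0.71, also without overlap and at p = 0.1 (exact permutation). This ratio depended on the scale, and was -1.08 after rescaling by the median of ratios, -1.06 when samples were scaled without ribosomal protein genes and -1.30 with GC content and coding length corrected for. As RNA was taken from whole cultures and scaled to a common total, fewer transcripts in each cell and fewer cells that express a gene cannot be told apart.

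The large subunit moved with the small one. The 81 large subunit genes summed to 21.6 to 23.6% of the listed TPM in glucose and 12.8 to 13.9% in galactose. The ratio of small to large subunit sums stayed between 0.80 and 0.815 in the 12 samples, and its log2 differed between groups by -0.01 for the deletion, 0.00 for the overexpression and -0.01 for control against WT (exact permutation tests, p = 0.2, p = 0.9 and p = 0.2).

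**Figure D1:**
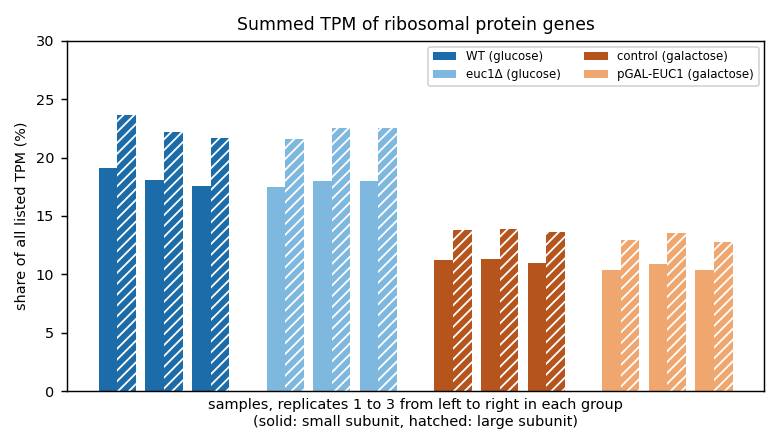
Share of all listed TPM taken by the 57 small subunit genes (solid bars) and the 81 large subunit genes (hatched bars) in each sample, replicates 1 to 3 from left to right. Small subunit shares are 17.5 to 19.1% in glucose and 10.4 to 11.3% in galactose.

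Paralog pairs were compared by the log2 ratio of A to B within a sample, a quantity that rescaling a whole sample hardly moves. Of the 24 pairs, A was the higher copy in all 12 samples in 12 pairs and B in 6, and the other 6 were mixed. The copies differed by more than 2-fold in 7 pairs and by less than 1.2-fold in 7. In 9 pairs the proteins are identical in the R64 genome, and the copies differ in their introns, flanks and silent positions. The reads were 75 bp long. In 15 pairs no 75-bp stretch of one coding sequence occurs in the other. In RPS6, 63.1% of these stretches occur in both copies, so the division of reads between them rests on how the authors' tool shared them out and is uncertain.

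To show what separated the copies, the middle 75 coding bases of the RPS9 pair, which differ at 6 bases, and of the RPS6 pair, which differ at 1, are printed with the differing bases in capitals. They are coding bases 257 to 331 of RPS9A (chrXVI:405707-405781, plus strand) and RPS9B (chrII:605177-605251, plus strand), and 319 to 393 of RPS6A (chrXVI:377609-377683, minus strand) and RPS6B (chrII:592030-592104, minus strand), all exonic, in build R64.
RPS9A: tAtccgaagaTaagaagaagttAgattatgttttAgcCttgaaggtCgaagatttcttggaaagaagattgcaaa
RPS9B: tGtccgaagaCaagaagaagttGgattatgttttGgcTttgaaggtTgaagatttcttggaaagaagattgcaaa
RPS6A: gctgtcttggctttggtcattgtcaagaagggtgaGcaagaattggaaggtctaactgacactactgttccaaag
RPS6B: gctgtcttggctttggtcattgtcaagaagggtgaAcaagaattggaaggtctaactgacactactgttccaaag

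Over the mean of the 12 samples the 3 most unequal pairs were RPS14, RPS9 and RPS22, an order that differed between groups. In WT the log2 ratio was larger in size for RPS9 (-3.21) than for RPS14 (2.77), and in the control RPS28 (1.93) exceeded RPS22 (1.72) and RPS9 (-1.60). RPS14, a protein of the platform, came mainly from RPS14A, at 7.14-fold the level of RPS14B, a gene whose expression the Rps14 protein itself is known to repress. RPS14A was listed at 3221 to 3612 TPM over the glucose samples and 1998 to 2098 over the galactose samples, and RPS14B at 436.3 to 515.6 and 271.7 to 323.7. RPS22 came mainly from RPS22A, at 3.89-fold the level of RPS22B, whose intron holds the snoRNA SNR44. RPS9, a protein that binds early to the 18S rRNA, came mainly from RPS9B, at 5.44-fold the level of RPS9A. At the other end, RPS0 and RPS18 were nearly even, with A to B ratios of 1.06 and 1.07-fold in one direction or the other, and neither kept the same higher copy in all 12 samples.

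**Figure D2:**
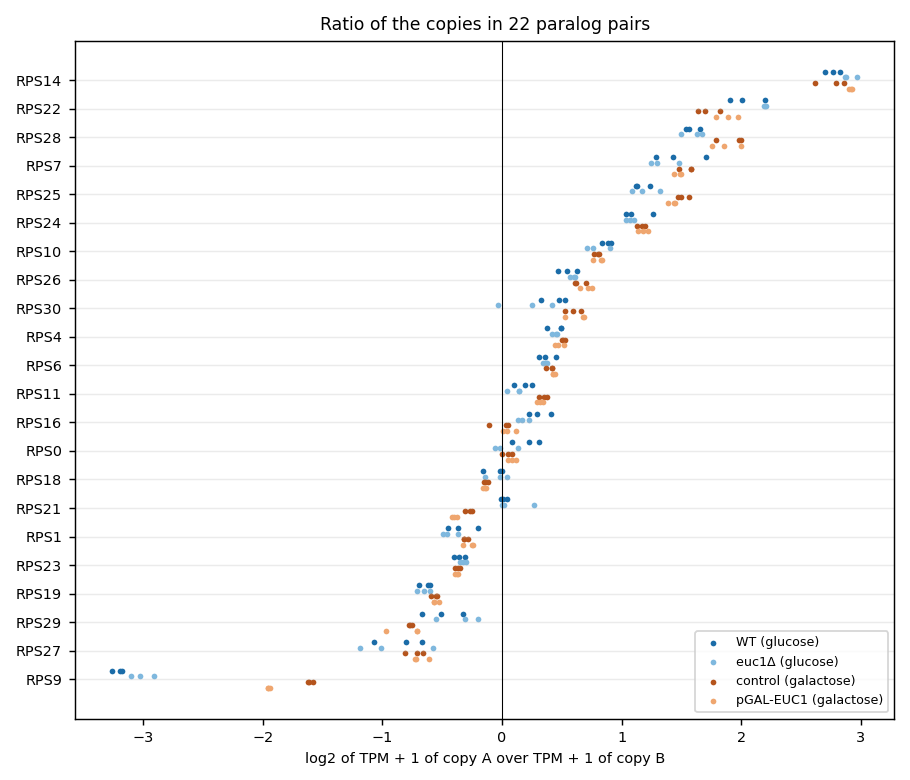
Log2 of (TPM + 1) of copy A over (TPM + 1) of copy B for 22 of the 24 pairs in each of the 12 samples, with 1 colour per group, ordered by the mean over all samples. RPS9 is the pair whose groups lie farthest apart, from a mean of -3.21 in WT to -1.60 in the control.

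RPS9 was the small subunit pair whose copies were divided most differently over the 4 groups. RPS9A (YPL081W, chrXVI:404950-406044) and RPS9B (YBR189W, chrII:604508-605508) each have 1 intron, of 501 and 413 bases, and proteins that are 98.0% identical. RPS9A was listed at 492, 413 and 434 TPM in WT, at 511, 539 and 499 in euc1∆, at 626, 639 and 601.1 in the control and at 474, 477 and 505 in pGAL-EUC1. It was thus highest in the control, where nearly every other gene of the subunit was low, and the control samples overlapped none of the other 9. RPS9B was listed at 4733, 3749.9 and 3961 TPM in WT, at 4182, 4059.8 and 4299 in euc1∆, at 1911, 1906 and 1853 in the control and at 1850.0, 1833 and 1965 in pGAL-EUC1. Its glucose and galactose samples were far apart, while euc1∆ overlapped WT and pGAL-EUC1 overlapped the control. As a result, RPS9A gave 9.42 to 9.93% of the RPS9 mRNA in WT, 10.4 to 11.7% in euc1∆, 24.5 to 25.1% in the control and 20.4 to 20.7% in pGAL-EUC1.

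The log2 ratio of RPS9A to RPS9B was -3.21 ± 0.047 in WT, -3.01 ± 0.097 in euc1∆, -1.60 ± 0.024 in the control and -1.95 ± 0.012 in pGAL-EUC1 (SD, n = 3). No 2 of these groups that were compared overlapped, and each difference reached p = 0.1, the smallest that an exact permutation test allows here. The ratio lay higher in euc1∆ than in WT by 0.20, lower in pGAL-EUC1 than in the control by 0.35 (a log2 difference of -0.35) and higher in the control than in WT by 1.61, a 3.05-fold difference. Over 17 other settings of the fit, which rescaled or corrected the values or left out a sample, these differences ranged from 0.14 to 0.24, from -0.36 to -0.34 and from 1.58 to 1.62. Both ends of each range came from leaving out a sample. The other settings can hardly move a ratio within a sample, so they test it little. Of the differences, the first and the last share the WT samples, and the last and the middle one share the control samples.

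Other pairs shifted too, some as far as RPS9. In the deletion the ratio of RPS30 differed by more, at -0.23, but its groups overlapped (exact permutation test, p = 0.2). Among the 35 large subunit pairs the widest differences in size were 0.296 in the deletion, 0.402 with overexpression and 1.65 between control and WT. In the deletion, 2 of the 24 small subunit pairs, RPS9 and RPS14, had ratios that did not overlap between euc1∆ and WT (8.33%), where 8.47% of the 59 pairs of both subunits did. For RPS14 the difference was 0.14 on the log2 scale, from 2.77 ± 0.064 in WT to 2.91 ± 0.055 in euc1∆. With overexpression 5 pairs did not overlap (20.8%, against 32.2% of the 59 pairs), namely RPS9, RPS14, RPS21, RPS25 and RPS6. After RPS9 the widest differences were 0.16 for RPS14 and -0.12 for RPS21, and those of RPS25 and RPS6 were -0.08 and 0.03. Between control and WT 13 pairs did not overlap (54.2%, against 66.1% of the 59 pairs). Here RPS25, a protein known to be needed for initiation at some viral internal sites, and RPS28 came next after RPS9, with differences of 0.34 each towards the A copy. RPS25A was listed at 4046 to 4246 TPM in WT and 2464 to 2531 in the control, and RPS25B at 1791 to 1943 and 859 to 892, so that B fell further than A. Each of these tests gave p = 0.1 (exact permutation). Groups that lie apart stay apart when a sample is left out, so the counts of such pairs could then only stay or rise. Without WT replicate 2, WT replicate 3 or euc1∆ replicate 1, the 2 pairs of the deletion became 4, 9 and 7. Without control replicate 1 or 3 the 5 pairs of the overexpression became 8, and without pGAL-EUC1 replicate 2 they became 10.

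Deletion of EUC1 was followed by no called change among the small subunit genes. The test was limma, run on log2(TPM + 1) for every gene that reached a mean of 1 TPM, and a gene was called at a Benjamini-Hochberg adjusted p under 0.1. Changes are given as log2FC, the difference of mean log2(TPM + 1), with the standard error of limma (SE). All 57 genes passed the filter. None was called higher and none lower in euc1∆ cells. Of the 6217 genes tested, 1 was called higher and 1 lower (0.0161% each), the latter being EUC1 itself. A lack of calls thus does not set the small subunit genes apart. The paper reports many more changed genes in euc1∆, from its own test on counts at another threshold. At an unadjusted p under 0.05 the count was 5 of 57 (8.77%), against 7.54% of all genes. Their log2 fold changes ran from -0.29 to 0.21, with a median of -0.01, against 0.01 for all genes. In 13 of the 57 (22.8%) euc1∆ and WT did not overlap, 6 higher and 7 lower, where 13.1% of all genes tested did not.

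The smallest p values in the deletion belonged to RPS22B, RPS29B and RPS9A. RPS22B (YLR367W, chrXII:856442-857317) was listed at 943, 853 and 759 TPM in WT and at 743, 634 and 705 in euc1∆. The groups were apart by a narrow margin, at log2FC -0.29 (SE 0.097, adjusted p = 0.54, limma). RPS29B, a small zinc-binding protein next to the mRNA path, was listed at 2134, 2596 and 2114 TPM in WT and at 1957, 1827 and 1869 in euc1∆, log2FC -0.27 (SE 0.090, adjusted p = 0.541, limma). One WT sample, replicate 2, was high, and the others of that group stood just above euc1∆. For RPS9A the change was 0.21 (SE 0.080, adjusted p = 0.589, limma). RPS30A and RPS10A, both lower, were the other genes with an unadjusted p under 0.05, at log2FC -0.21 and -0.18.

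Overexpression of EUC1 went with lower levels of 8 of the 57 small subunit genes, and none was called higher. Of all 6332 genes tested, 16.0% were called higher and 4.42% lower, against 0% and 14.0% of the small subunit genes. None of the 57 was higher at an unadjusted p under 0.05 either (limma), where 24.6% of all genes were. Among the called genes RPS9A and RPS3 fell most, to 0.781-fold and 0.81-fold of the control, followed by RPS22B, and smaller falls included those of RPS21A, RPS13, RPS22A and RPS2. Log2 fold changes ran from -0.36 to 0.03 with 53 of 57 below 0, at a median of -0.07 against 0.08 for all genes. In 20 genes (35.1%), all lower, the groups did not overlap. Of all genes tested 37.0% did not, but these were 1879 higher and only 462 lower.

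RPS3 (YNL178W, chrXIV:302680-303402), a single-copy gene without an intron whose protein lines the mRNA entry channel, read 2173, 2164 and 2077 TPM in the control and 1696, 1721 and 1778 in pGAL-EUC1. No pGAL-EUC1 sample came near the control, and the fall was -0.30 on the log2 scale (SE 0.035, adjusted p = 0.0043, limma). In glucose RPS3 was listed at 4055, 3506 and 3578 TPM in WT and at 3686, 4367 and 4298 in euc1∆, which overlapped (log2FC 0.15, adjusted p = 0.77, limma). In pGAL-EUC1 it had the lowest sum of the 33 proteins, 1732 TPM, a place that ASC1 held in the control at 1994 TPM.

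RPS9A fell from 622.0 ± 19.2 TPM in the control to 485.5 ± 16.9 TPM (SD, n = 3), by -0.36 on the log2 scale (SE 0.041, adjusted p = 0.0043, limma). Its partner RPS9B stood at 1890 ± 32.2 and 1883 ± 71.7 TPM, log2FC -0.01 (adjusted p = 0.925, limma). RPS3 and RPS9A were called lower under every one of 17 other settings, with adjusted p of 0.000786 to 0.0677 and 0.00109 to 0.0312, and they were the only small subunit genes of which this held.

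**Figure D3:**
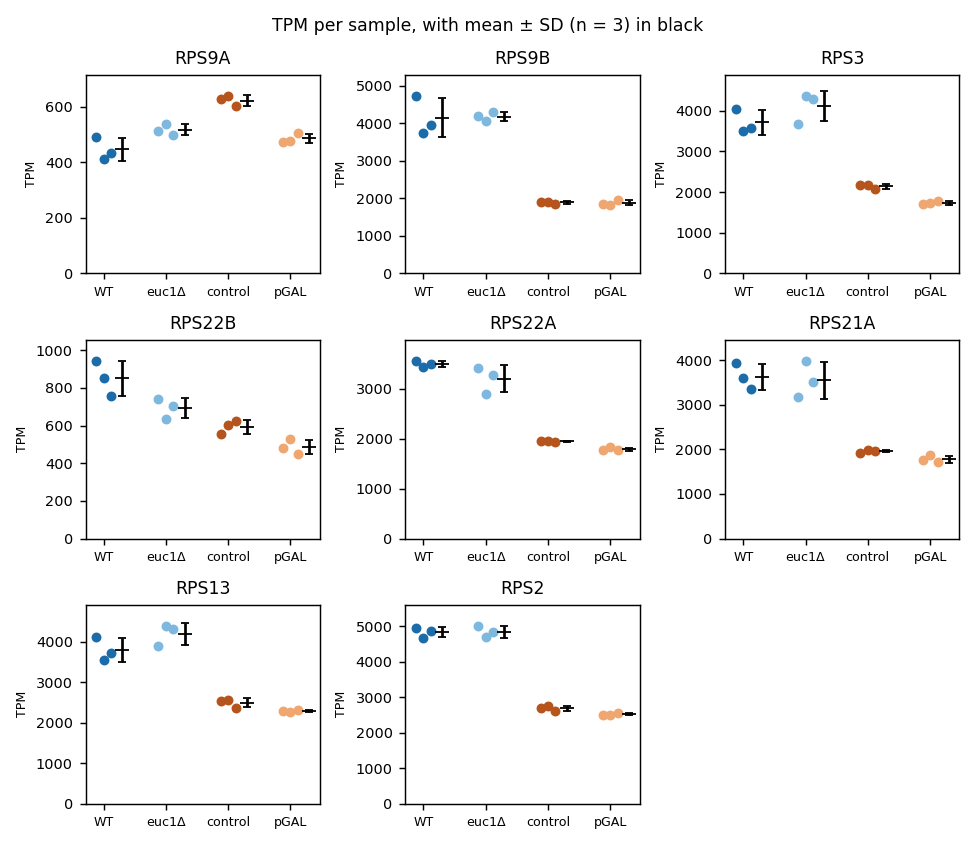
TPM of 7 of the 8 genes called lower in pGAL-EUC1 and of RPS9B in each of the 12 samples, with the mean ± SD (n = 3) in black, on axes from 0. RPS9A falls from 622.0 to 485.5 TPM and RPS3 from 2138 to 1732 TPM between control and pGAL-EUC1, while RPS9B stays at 1890 and 1883 TPM.

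RPS22B read 553, 602 and 622 TPM in the control and 481, 527.5 and 451 in pGAL-EUC1, log2FC -0.28 (SE 0.066, adjusted p = 0.0403, limma). Its partner RPS22A, listed at 1958, 1959 and 1937 TPM and at 1780.1, 1827 and 1768, fell by 0.12 on the log2 scale (SE 0.030, adjusted p = 0.0444, limma), so that both copies of this pair were called. RPS21A read 1928, 1974 and 1961 TPM in the control and 1753, 1867 and 1715 in pGAL-EUC1 (log2FC -0.14, adjusted p = 0.065, limma). Its groups were separate, whereas those of RPS21B, at 2335 to 2385 and 2265 to 2492 TPM, overlapped. RPS13 (log2FC -0.12) and RPS2 (-0.10) were called at adjusted p of 0.0836 and 0.0993 (limma).

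The number called lower depended on single samples and on the scaling. It was 4 without control replicate 1, 2 without control replicate 2 or pGAL-EUC1 replicate 1, 3 without pGAL-EUC1 replicate 3 and 16 without pGAL-EUC1 replicate 2. Of all genes tested, 203 of 6330 were called lower without control replicate 1 and 162 of 6326 without control replicate 2. Without pGAL-EUC1 replicate 1, 3 or 2 they were 99 of 6331, 178 of 6333 and 277 of 6329. The sample pGAL-EUC1 replicate 2 stood apart for short genes. The 10 members with coding sequences of up to 300 bases summed to 19036, 19134 and 18880 TPM in the control and to 16593, 19255 and 15749 TPM in pGAL-EUC1, and the high value is that of replicate 2. RPS29A was listed at 875, 1127 and 699 TPM there, against 1062 to 1103 in the control, which gave log2FC -0.30 without a call (adjusted p = 0.208, limma). After rescaling by the median of ratios, 32 genes were called lower, where 526 of the 6332 genes tested were, and all 57 were below 0.

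**Figure D4:**
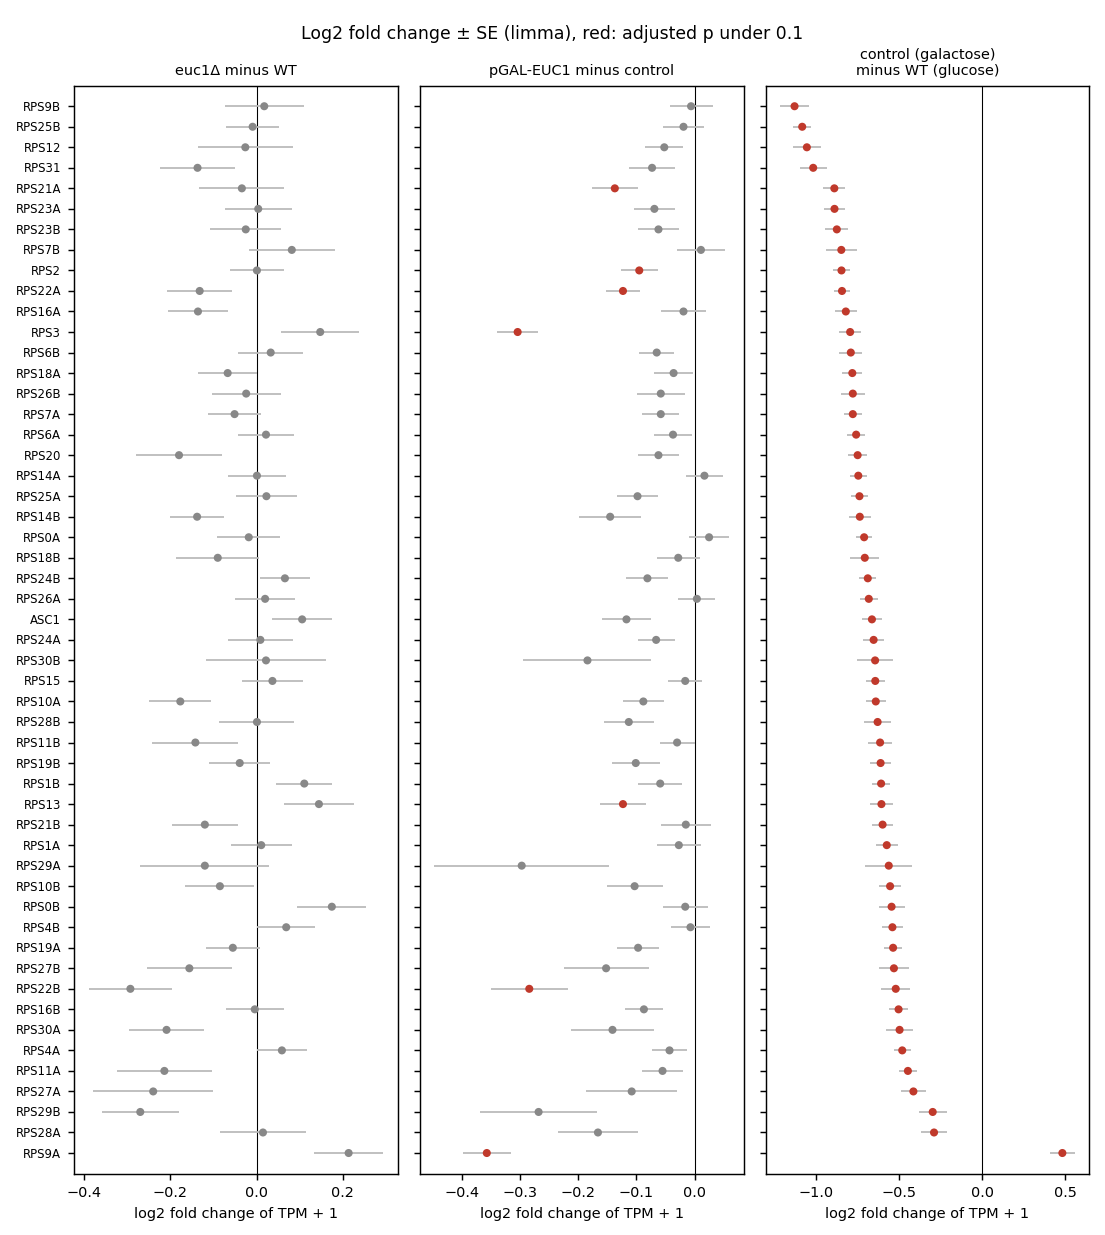
Log2 fold change of TPM + 1 with its standard error (limma) for 52 of the 57 genes in the 3 comparisons, each on its own axis, with genes of an adjusted p under 0.1 in red. None is red for the deletion, 7 for the overexpression and all 52 for control against WT, where RPS9A alone lies above 0.

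The control of the galactose experiment was set against WT of the glucose experiment to describe the levels over all 4 groups. Strain background, medium, EUC1 locus, the integrated plasmid (with an added copy of MED11 in WT) and experiment differ between them and cannot be told apart. In the control 56 of the 57 genes (98.2%) were called lower than in WT and 1, RPS9A, higher, where 13.3% of the 6324 genes tested were called lower and 57.8% higher. In none of the 57 did the groups overlap, which held for 71.6% of all genes, 3695 of them higher and 832 lower. The median log2 fold change was -0.65, against 0.36 for all genes, a distance of -1.01. Rescaling by the median of ratios moved the median of all genes to 0.00 and that of the small subunit genes to -1.03. The 56 falls were called under every one of 17 other settings.

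RPS9B, RPS25B, RPS12 and RPS31 had the widest falls. RPS9B fell by 1.13 on the log2 scale (SE 0.086, adjusted p = 9.23e-06, limma), from 4148 ± 517 to 1890 ± 32.2 TPM (SD, n = 3). RPS25B fell by 1.08 (SE 0.054, adjusted p = 8.81e-07, limma), from 1865 ± 76.2 to 880.5 ± 18.9 TPM. RPS12 and RPS31 fell by 1.05 and 1.01, at adjusted p of 1.32e-05 and 1.29e-05 (limma). The smallest falls were those of RPS28A, at -0.29, and RPS29B, at -0.30, with adjusted p of 0.0115 and 0.014 (limma). Among the 9 single-copy genes the median was -0.75, and among the 48 with a paralog it was -0.64.

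RPS9A rose from 446.3 ± 40.8 TPM in WT to 622.0 ± 19.2 TPM in the control (SD, n = 3), log2FC 0.48 (SE 0.074, adjusted p = 0.000602, limma). This rise rests on the scale of TPM. It was 0.11 (adjusted p = 0.443) after rescaling by the median of ratios, 0.13 (adjusted p = 0.207) when samples were scaled without ribosomal protein genes, and -0.11 (adjusted p = 0.267) after the values were corrected for GC content and coding length. Its place among the 57 genes did not, since the other 56 were called lower on each of these scales.

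Other genes of the translation machinery were counted from fixed lists. With overexpression, 20 of the 79 large subunit genes tested were called lower and none higher, with a median of -0.06, where 4.42% of all genes were called lower and 16.0% higher. The count was 33 after rescaling by the median of ratios, 31 with the GC and length correction, 5 in the fit of all 12 samples and 10 without a trend. With a sample left out it was 5 without pGAL-EUC1 replicate 1, 6 without control replicate 2, 8 without control replicate 1 and 9 without pGAL-EUC1 replicate 3. The 3 with the smallest adjusted p were RPL22B (-0.50), RPL9B (-0.41) and RPL8A (-0.38), at adjusted p of 0.00214 to 0.00361 (limma). Assembly factors of the small subunit lay on the other side, with 9 of 20 called higher, against 16.0% of all genes, and none lower. This count was 2 after rescaling by the median of ratios, 4 once GC content and coding length were corrected for and 3 in the fit of all 12 samples. It was 1 without pGAL-EUC1 replicate 1, 4 without pGAL-EUC1 replicate 3, and 5 without pGAL-EUC1 replicate 2 or control replicate 2 or 3. TSR2, which encodes the chaperone of Rps26 and was singled out after its values were seen, was called higher under all 17 other settings, log2FC 0.43 (SE 0.052, adjusted p = 0.00549, limma), from 141.7 ± 7.75 to 191.3 ± 7.67 TPM. Its client genes RPS26A and RPS26B had log2 fold changes of 0.00 and -0.06, and neither was called.

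Of the 13 regulators of ribosomal protein genes, HMO1, IFH1 and CRF1 were called higher with overexpression, at log2 fold changes of 0.15, 0.14 and 0.22 and adjusted p of 0.0579, 0.0894 and 0.097 (limma), and none lower, a share close to the 16.0% of all genes called higher. None of the 3 was called after rescaling by the median of ratios, after scaling without ribosomal protein genes, or with GC content and coding length corrected for. The count was also 0 in the fit of all 12 samples and without control replicate 2, pGAL-EUC1 replicate 1 or pGAL-EUC1 replicate 3, and 1 without control replicate 3 or pGAL-EUC1 replicate 2 and with the replicate block. RAP1 and FHL1 had log2 fold changes of 0.15 each, at adjusted p of 0.125 and 0.126. Of the 18 initiation factor genes, TIF34 and PRT1, subunits of the eIF3 complex that binds the small subunit, were called lower, at -0.18 and -0.19, and none higher, where 4.42% of all genes were called lower. The count of initiation factor genes called lower was 0 without pGAL-EUC1 replicate 1 and in the fit of all 12 samples, and 1 without any other sample but control replicate 3. It was 4 after rescaling by the median of ratios and 5 with GC content and coding length corrected for, where 526 of 6332 and 545 of 5759 genes were. Without pGAL-EUC1 replicate 3, 1 initiation factor gene was called higher. In the deletion no gene of these 4 lists was called (limma), and 11 of 79 large subunit genes and 1 of 18 initiation factor genes had an unadjusted p under 0.05, against 7.54% of all genes, with 0 among regulators and assembly factors. RPL39 (-0.42), SUI1 (-0.30) and RPL8B (0.23 on the log2 scale) had the smallest adjusted p there, 0.426, 0.51 and 0.51 (limma). In the fit of all 12 samples RPL8B was called higher (adjusted p = 0.0801, limma), where 30 of the 6217 genes tested were.

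Between control and WT, 73 of the 79 large subunit genes were called lower and 2 higher, and RPL9A (-1.32), RPL15A (-0.92) and RPL12B (-0.90) had the smallest adjusted p. Assembly factors did not move as the subunit genes did in TPM, with 3 of 20 called higher and 2 lower, where 57.8% and 13.3% of all genes were called. After rescaling by the median of ratios, however, 17 of 20 were called lower, where 2148 of the 6324 genes tested were. On that scale the median of the assembly factors was -0.40 and that of the small subunit genes -1.03. STB3, which encodes a repressor of growth genes, was called higher under all 17 other settings, log2FC 1.19 (adjusted p = 0.000433, limma) from 18.7 to 43.3 TPM, and was picked after its values were seen.

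Promoters were read from the R64 genome to see what the genes share in sequence. In the 500 bases before the start codon, on either strand, the Rap1 core CCCANACA was found in 21 of 57 small subunit genes (36.8%) and in 5.9% of 6006 coding genes. The variant CCGTACA was found in 17 (29.8%), against 3.9%. A longer form, ACACCCATACAT, is the consensus of the 26 core matches in these promoters with 3 bases before and 1 after, so its share in them is not independent of them. It contains the core, can overlap both shorter forms, was added after the first sequences had been read, and with up to 2 letters changed was found in 34 (59.6%), against 7.9%. Any of the 3 was found in 42 (73.7%), against 14.2% of all coding genes and 77.8% of the 81 large subunit genes. AAAATTTT, a form bound by Sfp1, was found in 5 (8.8%), against 12.4%, the Abf1 site in 6 (10.5%), against 18.1%, and TTTTTTTT in 22 (38.6%), against 44.2%. A match is a string of letters and not a bound site. Bases farther upstream were not searched, so a gene counted as without a form may hold one there. Genes with and without any of the Rap1 forms had median log2 fold changes of -0.06 and -0.10 with overexpression and of -0.67 and -0.61 between control and WT.

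RPS9A and RPS3 fell most among the genes called with overexpression, and RPS9B fell most between control and WT. RPS22B, the next called fall with overexpression, held none of the Rap1 forms and is not shown. Of the next widest falls between control and WT, also not shown, RPS25B and RPS31 held none in the same window and RPS12 held CCGTACA. The promoters of RPS9A (chrXVI:404600-404830, plus strand), RPS9B (chrII:604158-604388, plus strand) and RPS3 (chrXIV:302330-302560, plus strand) are printed in build R64. They run from 350 to 120 bases before the start codon, with the Rap1 forms in capitals.
RPS9A: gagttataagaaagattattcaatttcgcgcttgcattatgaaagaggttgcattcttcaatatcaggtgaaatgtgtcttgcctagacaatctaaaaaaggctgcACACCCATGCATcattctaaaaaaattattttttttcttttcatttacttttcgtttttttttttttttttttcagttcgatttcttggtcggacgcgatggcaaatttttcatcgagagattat
RPS9B: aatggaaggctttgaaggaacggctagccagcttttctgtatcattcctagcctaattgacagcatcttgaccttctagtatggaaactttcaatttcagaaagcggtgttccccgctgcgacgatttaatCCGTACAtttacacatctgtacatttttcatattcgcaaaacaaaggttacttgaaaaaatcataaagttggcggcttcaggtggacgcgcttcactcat
RPS3: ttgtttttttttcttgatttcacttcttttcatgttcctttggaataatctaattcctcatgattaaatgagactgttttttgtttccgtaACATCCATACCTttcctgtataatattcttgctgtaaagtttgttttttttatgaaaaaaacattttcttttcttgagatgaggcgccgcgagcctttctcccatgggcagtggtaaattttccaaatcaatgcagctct
RPS9A and RPS3 each hold the longer form within 2 letters, starting 244 and 259 bases before the start codon, and neither holds either of the shorter forms. RPS9B holds CCGTACA, 219 bases before it. A run of T letters follows the Rap1 form of RPS9A, and TTTTTTTT also occurs in the RPS3 promoter but not in that of RPS9B.

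Introns and length were examined as features that the choice of genes did not use. An intron interrupts 37 of the 57 coding sequences. Genes with and without one had median log2 fold changes of -0.03 and 0.00 in the deletion, -0.07 and -0.07 with overexpression, and -0.65 and -0.66 between control and WT, and 4 of each kind were called lower with overexpression. Across the 57 genes, which share their libraries and are not independent replicates, log2 fold changes followed the log2 coding length with a Pearson r of 0.551 in the deletion, 0.366 with overexpression and -0.10 between control and WT. In the deletion the 10 genes of up to 300 bases had a median of -0.12 and the other 47 a median of 0.00. These 10 summed to 28891, 29083 and 24446 TPM in WT and to 24207, 26618 and 26169 TPM in euc1∆, which overlapped. RPS29B and RPS30A, both with an unadjusted p under 0.05 in the deletion, are among them. With GC content and coding length corrected for, the change of RPS29B was -0.10 in place of -0.27 on the log2 scale (adjusted p = 0.809, limma).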

How the data were processed

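PolyA RNA of 12 samples was sequenced as 75-bp single-end reads. The authors aligned them with STAR 2.6.0a to the transcripts of build R64 (Ensembl) and deposited TPM values calculated with RSEM 1.3.0 in a single table. The authors ran their own test on counts with DESeq2, and those counts were not used here. Sources used here do not give whether reads were assigned by strand. The table's header is 1 cell out of step with its values, and the 12 sample codes were read as naming the 12 value columns in order, which the EUC1 levels match. The unit keeps no depth.

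The members and lists were chosen with earlier results of these data known. Each comparison of 3 with 3 samples was fitted with limma 3.58.1 (R 4.3.3, lmFit and eBayes with a trend, two-sided) on log2(TPM + 1) of every gene averaging 1 TPM or more, with Benjamini-Hochberg adjustment over all of them and calls at an adjusted p under 0.1. Fold changes are on that scale, which understates those of low genes. Sums and copy ratios were compared by exact permutation. The procedure was tested on simulated data. Named were EUC1, the 5 highest and 5 lowest members, up to 5 called rises and falls per comparison (or the 3 smallest p), the 3 most and least unequal pairs, up to 3 shifted pairs per comparison and 3 genes of the other lists. RPS22A was named as well because 8 calls are few. Some members are counted in the totals, but their own values are not reported here or drawn. Of the 6825 features, 5903 matched a locus tag of the RefSeq R64 annotation, from which sequences, introns and coordinates were read with Python 3.11.15 and pandas 2.3.3. Overlaps with the other 922 were not checked.

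Alternatives were pseudocounts of 0.1 and 5, dropping the filter or raising it to 10 TPM, scaling by the median of ratios or without ribosomal protein genes, all 12 samples in a single fit, no trend, the replicate number as a block, a correction for GC content and coding length, and each sample left out.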

Additional observations from a re-analysis of the deposited data

How the results depend on the processing

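Between euc1∆ and WT no small subunit gene was called under any of 17 alternatives, and the log2 ratio of their sums, -0.03, turned to 0.059 with the correction for GC content and length and ran from -0.052 to 0.003 with a sample left out, above 0 without WT replicate 1. With overexpression the 8 genes called lower became 32 after rescaling by the median of ratios, 28 with the GC and length correction, 2 with all 12 samples in a single fit, 4 without a trend, and 2 to 16 with a sample left out. Over all genes the calls split into 1014 higher and 280 lower, against 288 and 526 after rescaling by the median of ratios, 371 and 545 with the GC and length correction and 102 and 61 in the fit of all 12 samples. Between control and WT the split was 3654 and 840, against 2204 and 2148, 1732 and 2698, and 3843 and 906 under the same settings in that order, and 2218 and 1969 when scaled without ribosomal protein genes. The 1 gene called higher there, RPS9A, became 0 after rescaling by the median of ratios, when scaled without ribosomal protein genes, and with the GC and length correction, where its log2 fold change turned to -0.11. Shifted pairs numbered 2 to 9 in the deletion and 6 to 10 with overexpression with a sample left out, a step that cannot lower these counts. All counts of deletion calls over all genes were small, at 1 higher and 1 lower, and 30 and 71 in the fit of all 12 samples.

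The replicate numbers did not pair the samples, with correlations of same-numbered deviations of -0.106, 0.078 and 0.054 in the deletion and -0.006, 0.189 and -0.107 in the overexpression, and not every sample correlated best with its own number. With the replicate number as a block, 7 genes were called lower with overexpression, 6 of them among the 8, and RPS13 and RPS2 were not. With the block and the GC and length correction it was 27 genes, and between control and WT 0 genes were called higher and RPS9A stood at -0.11 (adjusted p = 0.23, limma). The cause of these changes was not tested. With 3 samples a group, no exact test can go below p = 0.1, and without read numbers the counting error of the low genes is unknown.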
